A study of Mus musculus with 2 samples.

Results

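The genes described here are 7 RNAs that are normally made without a poly(A) tail, out of 47069 genes in the count table: CT010467.1, n-R5-8s1, Gm24601, Rn7sk, Rmrp, Rpph1 and Terc. They were picked by name, by the kind of RNA they encode and with their levels in both libraries in view, so their values are a description and carry no test. The study compared 2 ways of stabilizing dispersed pituitary cells, and each was measured in 1 library. One sample was stored in RNA-Best, a proprietary buffer made for keeping whole single cells and their RNA, and the other in RNAlater, an RNA-stabilizing reagent that served as the reference. Both samples came from pure C57BL/6 female mice, randomly cycling and 10-12 weeks old, whose whole pituitaries were dispersed into single cells with enzymes. Each sample pooled cells of 5 pituitaries, about 500000-700000 cells, and the labels do not say whether both samples came from the same animals. Libraries were made from poly(A) RNA with an Illumina TruSeq mRNA kit and were read as single reads of 51 bases, and whether the counting used the strand of the reads is not stated. The table held 53915047 counts for RNA-Best and 44917492 for RNAlater. Levels are given as CPM, the count scaled by the library's total, and ratios are RNA-Best over RNAlater throughout. Intervals are 95% exact binomial intervals of the ratio of counts. They cover counting error only, not the difference between animals, preparations or libraries, for which there were no replicates.

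These RNAs act as RNA, not as templates for protein. RNA polymerase I transcribes one long precursor that is cut into the 18S, 5.8S and 28S ribosomal RNAs. RNA polymerase III makes 7SK RNA (Rn7sk), which holds the elongation kinase P-TEFb inactive, and also the RNA parts of RNase MRP (Rmrp), which cuts the ribosomal RNA precursor, and of RNase P (Rpph1), which trims the leading end of transfer RNAs. Telomerase RNA (Terc), a product of RNA polymerase II, carries the template from which telomere repeats are copied. None of their mature forms ends in the long poly(A) tail on which poly(A) selection relies, so in such libraries they are counted only as far as they are carried through.

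The sequences below are those on which the counts turn, read from the GENCODE M21 transcripts (GRCm38, RNA written with T), all 5′ to 3′. CT010467.1 is annotated on the minus strand at chr17:39846353-39848827, and its longest transcript has 1849 bases. RefSeq lists the 18S-related pseudogene Rn18s-rs5 over 1849 of its exon bases. As annotated, CT010467.1 runs opposite to the ribosomal strand: its first 60 bases (chr17:39848142-39848201) are shown with their reverse complement, which is the 3′ end of the 18S sequence.
CT010467.1 as annotated: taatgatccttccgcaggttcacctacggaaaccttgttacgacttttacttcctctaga
CT010467.1 opposite strand: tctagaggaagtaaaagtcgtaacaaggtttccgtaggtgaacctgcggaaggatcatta
In M21, bases 1 to 1244 of this transcript also lie under the opposite-strand gene Gm42418, which leaves its last 605 bases (chr17:39846353-39846957) to CT010467.1 alone. The first 200 of those bases (chr17:39846758-39846957, minus strand) are given because no exon of another gene in the count table overlaps them in M21. Whether reads from them also matched ribosomal sequence elsewhere in the genome was not examined.
CT010467.1 alone: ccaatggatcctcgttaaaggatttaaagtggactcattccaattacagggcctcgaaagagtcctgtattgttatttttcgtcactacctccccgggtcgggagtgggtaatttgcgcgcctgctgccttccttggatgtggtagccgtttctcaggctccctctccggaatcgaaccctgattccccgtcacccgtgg

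Gm24601 (chr6:94826781-94826923, minus strand) is annotated as a ribosomal RNA gene. Its 143 bases were 72.2% identical to n-R5-8s1, an annotated 5.8S gene, over 151 alignment columns. At read length the pair is distinct: neither shared a 51-base window with any other annotated transcript. Its sequence is printed whole because it shows the diverged 5.8S-type start.
Gm24601: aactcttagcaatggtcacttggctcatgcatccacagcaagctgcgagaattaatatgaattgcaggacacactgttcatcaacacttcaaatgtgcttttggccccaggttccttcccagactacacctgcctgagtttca
For Rn7sk (chr9:78175303-78175633, minus strand) the last 200 of 331 bases are shown (chr9:78175303-78175502), and capitals mark the 90 bases at the 3′ end that lie in no 51-base window shared with another annotated gene. In Rmrp (chr4:43492788-43493058, minus strand), capitals mark the bases outside the Ccdc107 exon that runs along the opposite strand.
Rn7sk 3′ part: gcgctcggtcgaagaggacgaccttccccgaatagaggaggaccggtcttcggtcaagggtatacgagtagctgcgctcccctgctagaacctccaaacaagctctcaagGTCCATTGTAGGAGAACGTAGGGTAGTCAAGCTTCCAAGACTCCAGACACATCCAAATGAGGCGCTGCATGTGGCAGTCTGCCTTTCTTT
Rmrp: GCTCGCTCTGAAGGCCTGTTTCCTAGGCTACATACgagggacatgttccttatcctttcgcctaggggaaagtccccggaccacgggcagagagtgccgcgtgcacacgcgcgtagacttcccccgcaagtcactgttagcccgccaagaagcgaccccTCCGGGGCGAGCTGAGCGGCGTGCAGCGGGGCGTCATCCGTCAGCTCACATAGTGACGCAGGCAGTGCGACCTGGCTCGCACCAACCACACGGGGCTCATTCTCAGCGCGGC
Rpph1 (chr14:50807449-50807767, minus strand) is shown by the 35 and 51 bases at its ends, at chr14:50807733-50807767 and chr14:50807449-50807499, which are all that lies outside a same-strand exon of Ccnb1ip1 in M21. For Terc (chr3:96414437-96414859, minus strand) the first 100 bases are printed, with the single match of the telomere template letters CTAACCCT, searched on both strands, in capitals at bases 29 to 36. Those letters stood in the first 423 bases of 0.679% of the 35791 genes whose longest transcript reached that length. RefSeq places Terc at chr3:96414437-96414833, with 397 bases. The start of the printed M21 stretch therefore lies upstream of the RefSeq RNA, while the template letters lie within both.
Rpph1 5′ end: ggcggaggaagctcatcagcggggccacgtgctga
Rpph1 3′ end: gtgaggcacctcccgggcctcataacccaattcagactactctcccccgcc
Terc 5′ end: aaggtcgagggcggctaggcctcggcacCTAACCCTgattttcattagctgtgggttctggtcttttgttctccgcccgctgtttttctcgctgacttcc

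All 7 RNAs had a higher CPM in the RNA-Best library, as had 33% of all genes above the minimum level used below. Summed, they made up 0.462% of all RNA-Best reads counted against 0.133% for RNAlater, a ratio of 3.47 (3.44 to 3.50). CT010467.1 alone held 99.7% of the members' counts in RNA-Best and 99.5% in RNAlater, so this sum is in effect the value of 1 gene. The other 6 together gave 11.7 CPM against 6.93 CPM, a ratio of 1.69 (1.48 to 1.95). Log2 ratios were formed after adding 0.5 CPM to each level, which understates the ratios of weak genes. On that scale the median of the 7 was 0.49. With the RNAs that had no read in RNAlater set to their lower bound instead, it was 0.97. The median over the 16504 genes whose mean level reached 1 CPM was -0.18.

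**Figure D1:**
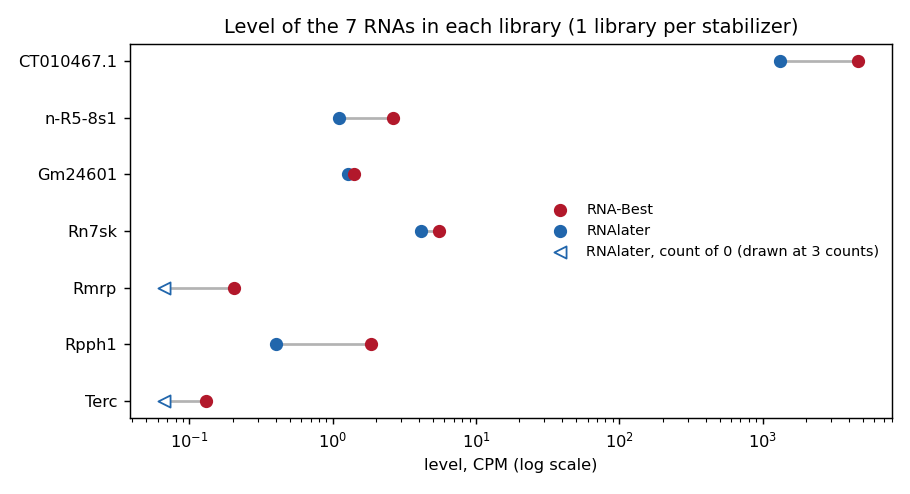
Level of each of the 7 RNAs in CPM (log axis) in the RNA-Best library (red) and the RNAlater library (blue), with 1 library per stabilizer. Open triangles stand for Rmrp and Terc, which had a count of 0 in RNAlater and are drawn at the level of 3 counts, 0.0668 CPM; red lies to the right of blue in every row, by least for Gm24601.

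Among the ribosomal RNA genes, CT010467.1 had by far the highest level and the other pair had levels below that of Rn7sk. CT010467.1, the 18S-type gene, stood at 4608 CPM in RNA-Best against 1324 CPM in RNAlater, from 248417 and 59491 counts. Its ratio was 3.48 (3.45 to 3.51), and it ranked 7 among all genes by count in RNA-Best against 40 in RNAlater. n-R5-8s1 (chr18:73533403-73533550, minus strand) is a single annotated 5.8S gene, 39494 bases from the nearest gene in the table. Its row had 143 counts in RNA-Best against 50 in RNAlater. These gave 2.65 CPM and 1.11 CPM, and a ratio of 2.38 (1.72 to 3.36). Gm24601, the diverged 5.8S-type gene, had 76 and 57 counts, or 1.41 CPM and 1.27 CPM. Its ratio of 1.11 had an interval from 0.778 to 1.59, so at this depth no difference was detectable. The intervals of CT010467.1, n-R5-8s1 and Gm24601 did not overlap. The intervals cover counting error alone, and the genes were picked with these levels in view, so this is a description and no test.

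The RNA polymerase III products were also counted far less often than CT010467.1. Rn7sk had 295 counts in RNA-Best against 186.35 in RNAlater, or 5.47 CPM and 4.15 CPM, with a ratio of 1.32 (1.10 to 1.60). Rpph1, the RNase P RNA, had 100 counts against 18, or 1.85 CPM against 0.401 CPM. Its ratio of 4.63 (2.78 to 8.13) lay wholly above that of Rn7sk. Rmrp, the RNase MRP RNA, had 11 counts in RNA-Best but 0 in RNAlater. A count of 0 allows up to 3 counts, 0.0668 CPM in RNAlater, so Rmrp at 0.204 CPM was at least 3.05-fold higher in RNA-Best if its 11 counts are taken as exact. The binomial interval, which also allows for error in those 11 counts, began at 2.09. Terc, the telomerase RNA, had 7 counts in RNA-Best but 0 in RNAlater, or 0.130 CPM, which was at least 1.94-fold higher by the same floor, with an interval that began at 1.20.

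Of the 7 RNAs, 5 passed the minimum mean of 1 CPM, and Rmrp and Terc did not. Rpph1 passed only through its RNA-Best level. On the log2 scale CT010467.1 (1.80) and Rpph1 (1.39) exceeded RNAlater by at least 2-fold, as did 0.273% of all genes above that minimum (45 genes), while 4.99% (824 genes) were at least 2-fold lower. No member was lower by that much. The members were chosen on this same contrast, so nothing is read from their count. n-R5-8s1 stood just under the line at 0.97, Rn7sk at 0.36 and Gm24601 at 0.11. With the scaling factor of edgeR's trimmed mean of M values (TMM), which moved the median of all genes by 0.16, 110 genes were at least 2-fold higher and 438 lower, and n-R5-8s1 passed the line at 1.10.

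**Figure D2:**
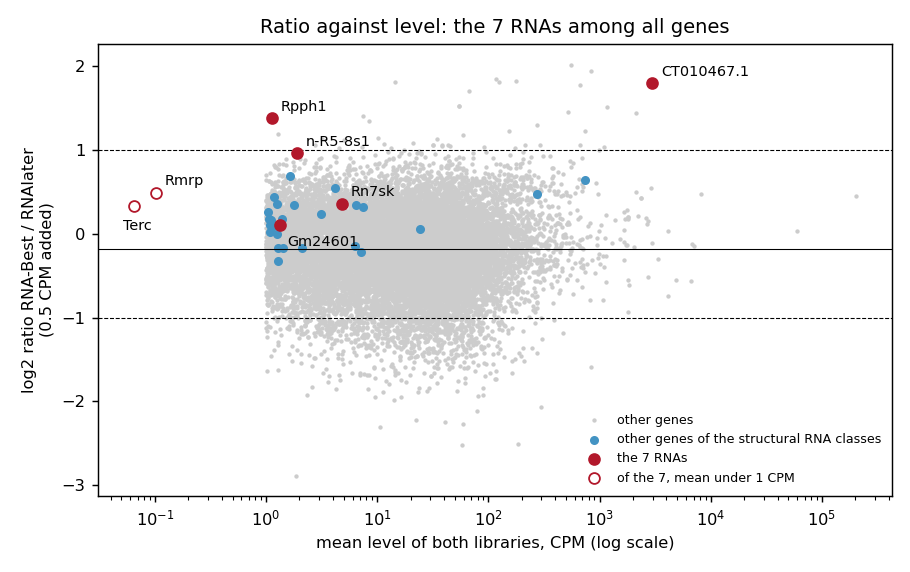
Log2 ratio of RNA-Best to RNAlater (0.5 CPM added) against the mean level of both libraries in CPM (log axis) for all genes whose mean reached 1 CPM (grey), other genes of the structural RNA classes (blue) and the 7 RNAs (red, open where the mean was under 1 CPM). Dashed lines mark 2-fold and the solid line the median of all genes, -0.18; CT010467.1 and Rpph1 lie above the upper dashed line and n-R5-8s1 just under it.

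Per length of exon, the order of levels also differed between the libraries. In RNA-Best CT010467.1 stood at 1868 CPM per kb, followed by n-R5-8s1 at 17.9, Rn7sk at 16.5, Gm24601 at 9.86, Rpph1 at 5.81, Rmrp at 0.753 and Terc at 0.307 CPM per kb. The neighbours n-R5-8s1 (15.1 to 21.1 by counting error) and Rn7sk (14.7 to 18.5) did not differ beyond their intervals, nor did Rmrp (0.376 to 1.35) and Terc (0.123 to 0.632). In RNAlater CT010467.1 again led at 537 CPM per kb, followed by Rn7sk at 12.5, Gm24601 at 8.87, n-R5-8s1 at 7.52 and Rpph1 at 1.26 CPM per kb. There Rn7sk (10.8 to 14.4) overlapped Gm24601 (6.72 to 11.5), and Gm24601 overlapped n-R5-8s1 (5.58 to 9.92). The level of n-R5-8s1 was thus close to that of Rn7sk in one library and below it in the other. These levels use whole exon lengths, and a read in an exon shared with another gene may not have been counted for either. Rpph1 has 27.0% and Rmrp 54.2% of its exon bases to itself, so their levels per kb and places in the order may be understated.

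How much of each RNA could be counted differed widely. Gm24601, n-R5-8s1, Rn7sk and Terc lay under no other exon of a gene in the table, whereas Rmrp had 54.2%, Rpph1 27.0% and CT010467.1 26.1% of their exon bases to themselves in M21. The 2 genes that overlap CT010467.1 (Gm42418 over 1822 bases and AY036118 over 923) had 0 counts in both libraries. Ccnb1ip1, a ubiquitin ligase gene that shares 233 bases with Rpph1, had 0 counts in RNA-Best but 1 in RNAlater. Ccdc107, which shares 124 bases with Rmrp, had 932 counts against 662, a log2 ratio of 0.22. The genes lie on opposite strands, and because the strand setting of the counting was not stated, it is not known whether reads in the shared bases were assigned to either. Parp2, a DNA repair gene beside Rpph1, was near even at a log2 ratio of -0.12, and so was C920006O11Rik, 281 bases from Rn7sk, at 0.19.

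**Figure D3:**
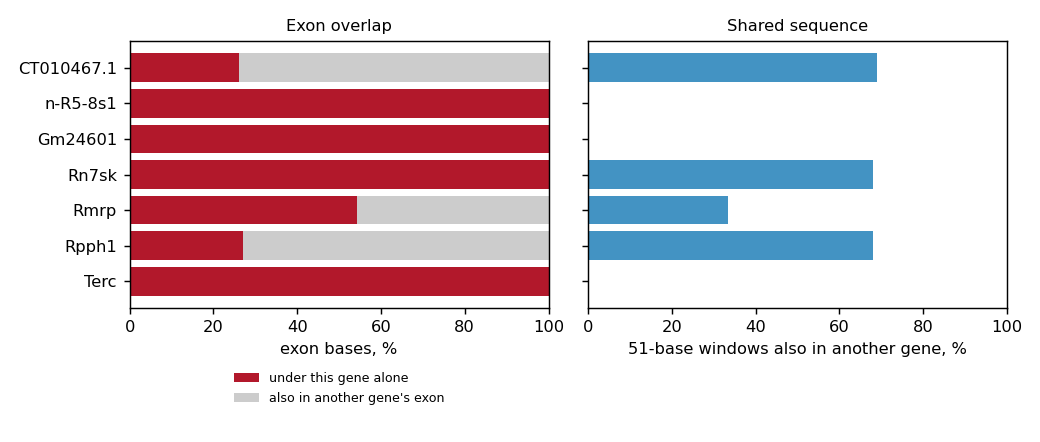
Left, percent of each RNA's exon bases that lie under that gene alone (red) or also in an exon of another gene of the count table (grey); right, percent of its 51-base windows found in another annotated gene on either strand. CT010467.1 and Rpph1 had the smallest shares to themselves (26.1% and 27.0%), while Rn7sk overlapped no gene but shared 68.0% of its windows.

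Annotated near-copies elsewhere were found for Rn7sk. Of its 281 windows, 191 also stood in Gm24447, the closest of 7 annotated genes that share a window with it. Gm24447 had 61.5 counts in RNA-Best against 45.87 in RNAlater. Rn7sk with all 7 gave 8.50 CPM and 6.74 CPM, a ratio of 1.26 (1.09 to 1.46), so the 7SK value was much the same with its copies included. Rn7sk and CT010467.1 were the members with fractional counts, and how the authors' counting arrived at the fractions is not stated. The other 5 had whole counts in both libraries. The neighbour of CT010467.1 in the same ribosomal stretch, Gm26917, had 299 CPM and 208 CPM, a log2 ratio of 0.52.

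The members share a lack of long A runs. The longest run of A was 5 bases in Terc, 4 in CT010467.1, 3 in n-R5-8s1, Gm24601, Rn7sk and Rmrp, and 2 in Rpph1. On the strand opposite to the CT010467.1 annotation, the ribosomal strand, it was 6. For comparison, 85.4% of 16443 genes above 1 CPM that have a sequence in M21 had a run of at least 5 in their longest transcript, and 29.5% one of at least 8, although most of those transcripts are far longer. The GC content of the members ran from 46.2% in Gm24601 to 67.1% in Terc. Rpph1, also at 67.1%, and Gm24601 held the high and the low end of the ratio among the short members above 1 CPM. The other short members above that level did not keep this order. n-R5-8s1, at 52.0% GC, had a log2 ratio of 0.97, and Rn7sk, at 58.0%, one of 0.36.

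Length moved with the ratio across all genes. Genes whose longest transcript was at most 0.5 kb had a median log2 ratio of 0.34, and 693 of 842 were higher in RNA-Best. Those of 1 to 2 kb had a median of 0.07 and those over 2 kb one of -0.30. All members but CT010467.1 are at most 423 bases long. Among genes up to 0.5 kb, 3.09% were at least 2-fold higher, against 0.147% of those of 1 to 2 kb, the class of CT010467.1. Gm24601 (0.11) stood below the median of the short genes, Rn7sk (0.36) beside it, and n-R5-8s1 (0.97) and Rpph1 (1.39) above it. The part of length in the members' values was not tested.

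Other RNAs that lack long poly(A) tails give the setting for these values. Reaching 1 CPM were 25 other genes of the structural classes: small nucleolar RNAs, mitochondrial ribosomal and transfer RNAs and a 7SK copy. Of these, 18 were higher and 7 lower in RNA-Best, with a median log2 ratio of 0.17. Over all genes above that minimum 33% were higher, and of those up to 0.5 kb 693 of 842 were, with a median of 0.34. At least 2-fold higher were 0% of the 25 genes and 0.273% of all genes, so the 0% says little for so few genes. Small nucleolar RNAs, which guide modification of ribosomal RNA and are mostly cut from introns, summed to 67.9 CPM against 62.1 CPM, a ratio of 1.09 (1.04 to 1.15). Their 16 genes above the minimum ran from -0.32 for Gm24044 to 0.70 for Snord65, and Snora31, the most abundant, stood at 0.34. The mitochondrial ribosomal RNAs, which carry short A tails, were higher in RNA-Best: mt-Rnr1 had 318 CPM against 229 CPM (log2 ratio 0.48) and mt-Rnr2 had 900 CPM against 575 CPM (0.65). Mitochondrial transfer RNAs summed to 48.7 CPM and 46.5 CPM, a ratio of 1.05 (0.989 to 1.11), with mt-Ts1 the most abundant at 24.8 CPM and 23.8 CPM.

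No spliceosomal RNA gene reached a mean of 1 CPM. The class summed to 8.99 CPM against 7.81 CPM, a ratio of 1.15 whose interval began just above 1 and ended at 1.32, and its most abundant gene, Gm22107, had 30 and 26 counts. Small Cajal body RNAs summed to 2.17 CPM and 1.56 CPM, a ratio of 1.39 (1.03 to 1.90), led by Scarna2 with 30 and 14 counts. The ribosomal class without the members held 75.5 counts against 36, a ratio of 1.75 (1.17 to 2.69). A single gene, Gm24991, supplied 36 of those RNA-Best counts and 4 of those in RNAlater. The ratio therefore leans on that gene and is not read as one of the class. Rpph1 and Rmrp were 2 of 4 ribozyme genes with any count. The other 2, Gm25661 and Gm26464, had 8 and 4 counts in RNA-Best but 0 in RNAlater, though the interval of Gm26464 alone began at 0.55. The class ratio was 5.69 (3.46 to 9.92), but 111 of its 123 RNA-Best counts were those of Rpph1 and Rmrp, and without them 12 counts against 0 remained, with an interval that began at 2.31.

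The 7SL genes, whose RNA is the scaffold of the signal recognition particle and which RNA polymerase III also transcribes, had ratios close to that of Rpph1. Rn7s1 and Rn7s2 had 78.47 counts each in RNA-Best against 14.57 in RNAlater, and Rn7s6 had 77.8 and 13.57. Rn7s1 and Rn7s2 have identical sequences, so their reads cannot be told apart. The 3 together gave 4.35 CPM against 0.951 CPM, a ratio of 4.58 (3.28 to 6.46), although each had a mean under 1 CPM. Among these products of RNA polymerase III, the interval of 7SL and that of Rpph1 lay above the one of Rn7sk. The 7SL genes were chosen after their values were seen, and Rpph1 and Rn7sk with their levels in view. No conclusion about products of this polymerase is drawn from these intervals. The 5S genes named n-R5s, the remaining ribosomal RNA made by this polymerase, had 12.25 and 16.75 counts over 180 genes, a ratio of 0.609 (0.256 to 1.31), which is too few to tell a difference. Rn7sk, its copies, Terc and the 7SL genes are annotated in a class of miscellaneous RNAs. The 550 other genes of that class held 180.63 counts in RNA-Best against 181.79 in RNAlater. Their ratio of 0.828 (0.671 to 1.02) was on the other side of equal levels, with an interval that included them.

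**Figure D4:**
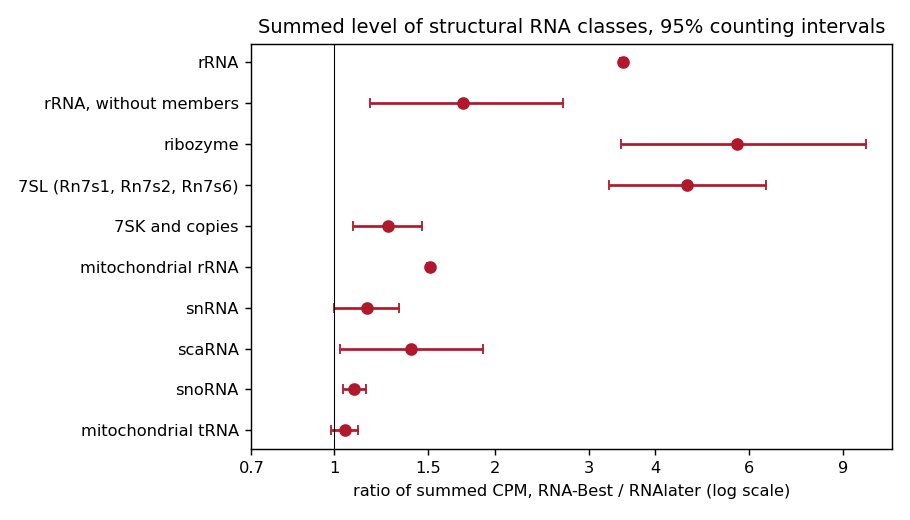
Ratio of summed CPM, RNA-Best over RNAlater (log axis), for classes of structural RNA, with 95% intervals for counting error; the vertical line marks equal levels. The ribosomal class (3.47, nearly all CT010467.1), the ribozymes (5.69, mostly Rpph1) and 7SL (4.58) lie above 3, while 7SK with its copies, small nucleolar, spliceosomal and mitochondrial transfer RNAs lie below 1.5. The 5S genes (0.609) and the other miscellaneous RNAs (0.828) are not drawn.

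No mRNA of the proteins that bind or make these RNAs was 2-fold higher in RNA-Best, where 0.273% of all genes were, so a count of 0 among so few genes says little. Over all genes, 67% had a lower CPM in RNA-Best, and the splits of the lists below stand beside that share. All 7 genes of the 7SK particle and P-TEFb had a lower CPM in RNA-Best, from -0.49 for Ccnt1, a cyclin of P-TEFb, to -0.04 for Hexim2, an inhibitor within the particle. Larp7, which binds the end of 7SK, had a log2 ratio of -0.17, Mepce, which caps it, -0.46, Hexim1 -0.40 and the kinase Cdk9 -0.07. The median of the list, -0.21, was close to that of all genes, -0.18, and with TMM scaling 2 of the 7 turned higher. None was 2-fold different, while Rn7sk itself was at 0.36.

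Of the 11 protein genes of RNase P and RNase MRP, 7 were higher and 4 lower in RNA-Best and none differed by 2-fold. Their median was 0.09. Rpp40 was at the top (0.64) and Rpp21 at the bottom (-0.20), with the subunits Pop1 at 0.04 and Rpp30 at 0.10. With TMM scaling 9 were higher and 2 lower. The 8 telomerase protein genes had a median of -0.33, with 3 higher and 5 lower (4 and 4 with TMM), from -0.94 for Tep1 to 0.61 for Nhp2. Tert, the catalytic subunit, had 171 counts against 218, a log2 ratio of -0.54, while Terc had 7 and 0. Dkc1, the pseudouridine synthase that stabilizes Terc, stood at -0.12, and its partner Nop10 at 0.51. With TMM scaling Dkc1 turned to 0.05 and Cdk9 to 0.10.

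Of the 15 genes of RNA polymerase I and its factors, 5 were higher and 10 lower, with a median of -0.15. Polr1a, the largest subunit, was at least 2-fold lower at -1.11, Polr1c was highest at 0.42, and Ubtf, the factor that binds ribosomal DNA, was at -0.47. Of 27 genes of RNA polymerase III, 7 were higher and 20 lower, with a median of -0.19. Bdp1 was lowest at -1.04, also at least 2-fold lower. Over all genes 4.99% were lower by that much, and of those over 2 kb 806 of 11641 were. The longest transcripts of Polr1a and Bdp1 have 9216 and 9921 bases, so nothing is read from these 2 genes. With TMM scaling the splits became 8 higher to 7 lower for polymerase I and 11 to 16 for polymerase III, and no gene of either list was 2-fold lower. The 21 genes of small nucleolar particles and ribosomal RNA maturation had a median of -0.05 (Gar1 lowest at -0.60, Nhp2 highest at 0.61), with 9 higher and 12 lower, which became 15 and 6 with TMM. The 16 exosome and 3′ trimming genes had a median of -0.01, 8 higher and 8 lower (12 and 4 with TMM), with Tent4b lowest at -0.85 and Exosc5 highest at 0.59.

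**Figure D5:**
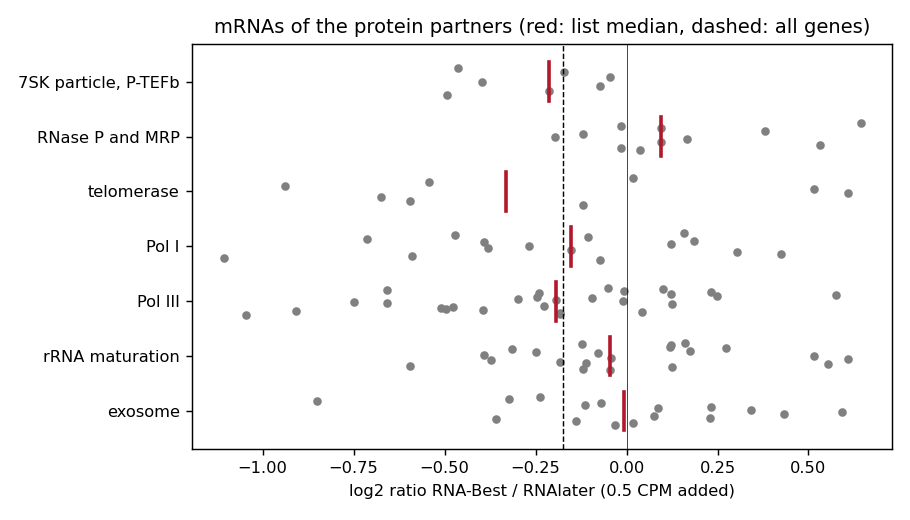
Log2 ratio of RNA-Best to RNAlater (0.5 CPM added) of each protein-coding partner gene above 1 CPM, by list; the red bar is the list's median, the dashed line the median of all genes (-0.18) and the thin line equal levels. List medians run from -0.33 for telomerase to 0.09 for RNase P and MRP, and no partner gene was 2-fold higher.

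The genes outside the 7 whose log2 ratio was nearest to the members' median of 0.49, among those that reached 10 CPM, were Erp29, Ly6h and Rps13, each at 0.49 over these 2 libraries. The defining markers of the labelled tissue were present: the 7 pituitary hormone genes summed to 30.7% of RNA-Best and 23.9% of RNAlater counts, and all 7 were higher in RNA-Best, from 0.04 for Gh to 0.73 for Tshb. Markers of other cells moved between the libraries too. The 3 hemoglobin genes of red blood cells, all higher, summed to 2712 CPM against 846 CPM, a ratio of 3.21. The 3 endothelial genes Pecam1, Cdh5 and Kdr, all lower, summed to 117 CPM against 293 CPM, and the macrophage genes C1qa, C1qb and Csf1r, 2 of 3 higher, to 128 CPM against 110 CPM. The longest transcripts of the hemoglobin genes have 628 to 703 bases and those of the endothelial genes 3441 to 5924. C1qa and C1qb, both higher, have 1040 and 1088 bases, and Csf1r, which was lower, has 4701. Tshb, which was higher, has 4396. The part of length in these markers was not tested, nor was the part of these cell types in the members' values. Fewer cells of a type and less RNA per cell cannot be told apart in such bulk libraries, and the stabilizer cannot be told apart from the sample it was used on.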

How the data were processed

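Poly(A) RNA of 2 samples of dissociated mouse pituitary cells was measured, 1 stored in RNA-Best and 1 in RNAlater, grouped by the stabilizer in the labels. The authors deposited 1 table of estimated counts per gene, not normalized. The submitters' processing notes name STAR 2.5.1b, featureCounts 1.5.0-p1 and mm10. GENCODE M8 is stated for the study's cell line libraries. The strand setting and the option that gave fractional counts are not given in the sources used here. Of 47069 identifiers, 46574 (98.9%) matched GENCODE M21 (GRCm38), from which names, exons and sequences came, so overlaps under the annotation of the counts may differ.

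Counts were divided by the library total, 53915047 or 44917492. Log2 ratios used a pseudocount of 0.5 CPM, and counts of 2-fold differences a mean of at least 1 CPM. Intervals are exact conditional binomial at 95%, without the pseudocount, on rounded counts, and a count of 0 was read as up to 3 counts. Levels per kb used the union of exons, with exact Poisson intervals. Shared sequence means an identical window of 51 bases on either strand of an annotated transcript, and identity is from global alignment (Biopython 1.88). Scaling factors came from TMM in edgeR 4.0.16 and from size factors in DESeq2 1.42.0, both run under R 4.3.3. With 1 library per group no test was made. The scripts were tested on simulated data. The members and gene lists were chosen with earlier results of these data known. Genes were named by rule: the members, genes that overlap them, the ends of each list and 11 partner genes, the most abundant gene of each class, mt-Rnr1, mt-Rnr2, and the 3 genes of at least 10 CPM nearest the members' median. Gm24447, Gm26917, Parp2, C920006O11Rik, Gm25661, Gm26464, Rn7s1, Rn7s2, Rn7s6, Gm23935 and its copies, Mir6236 and Gm24991 were chosen after their values were seen. One end of a list is not reported here.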

Additional observations from a re-analysis of the deposited data

How the results depend on the processing

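No member changed sign under the 8 alternatives run, which says nothing of stability: each scaling raised all ratios, a pseudocount cannot turn a sign, and the members were chosen with their values known. The log2 ratio of the summed level, 1.79, became 1.97 with TMM, 1.98 with DESeq2 size factors, 1.92 with totals that leave out the 2 most abundant genes, and 0.76 without CT010467.1. The median of the 7, 0.49, became 0.66 with those totals and 1.20 with a pseudocount of 0.1 CPM. Genes at least 2-fold higher numbered 110 with TMM, 118 with DESeq2, 94 with those totals and 22 with a pseudocount of 5 CPM, against 45; genes lower numbered 438, 423 and 333 with TMM, DESeq2 and 5 CPM, against 824. In the structural classes the 2 higher genes became 1 (CT010467.1) with 5 CPM or with a minimum of 10 CPM, and 5, with Rn7s1, Rn7s2 and Rn7s6, when every gene with a count entered. The cause of these shifts was not tested. Depth limits Rmrp and Terc, whose log2 ratios ran from 0.06 to 1.60 and from 0.04 to 1.20 with the setting, Rpph1, from 0.34 to 1.96, and n-R5-8s1, from 0.32 (5 CPM) to 1.18 (0.1 CPM). Adding the genes that share a window joins Rmrp to the far larger count of Ccdc107, so that value (0.24) is mostly Ccdc107. No paired analysis was possible because there was 1 library per stabilizer.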

Other observations

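Outside the structural classes, 5 short genes annotated as microRNAs had ratios close to that of CT010467.1. Gm23935, Gm24270, Gm24187, Gm24245 and Gm25911 summed to 1794 CPM against 516 CPM, a ratio of 3.48 (3.43 to 3.53). Gm24270 and Gm24245 were 100% identical to Gm23935, so their reads cannot be told apart. Mir6236, also annotated as a microRNA, had 1722 CPM against 604 CPM, a log2 ratio of 1.51. None of them shared a 51-base window with a member. Gm24991, a ribosomal RNA gene of low count, had 36 counts against 4, a ratio of 7.50 (2.69 to 29.0). These genes were chosen after their values were seen.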
